A study of Rattus norvegicus with 20 samples.

Results

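The 10 arrays described here, of 20 in the series, were all those titled Congenic P (P.NP) and Alcohol-preferring (P), 5 of each. P is an inbred rat strain selectively bred for alcohol preference, and NP is its non-preferring counterpart. P.NP is a congenic strain that carries a segment of chromosome 4 from NP on the P background, homozygous, made by 10 generations of backcrossing per the study's methods, which place the segment between the markers D4Mgh16 and D4Rat55. The study states that its rats were male. RNA came from femora of rats aged 4 weeks, 1 array per animal, and the labels name the proximal femur. NP and NP.P, the reciprocal congenic strain with the P segment on the NP background, supplied another 10 arrays, of other animals, that entered the same fit.

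A quantitative trait locus, or QTL, is a stretch of chromosome whose alleles go with differences in a measured trait. In a congenic strain such a stretch is moved between inbred backgrounds by repeated backcrossing, so that the 2 strains compared should differ in sequence mainly at the transferred segment. A transcript that differs between them can be encoded within the segment, where local (cis) variants can act on it, or elsewhere, where it can only respond to the segment at a distance (trans). Residual donor sequence outside the segment and variants under the array probes can also change a signal, and neither was tested here.

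The values are MAS5 signals, which are linear brightness values of a probe set, a group of short oligonucleotides against a transcript. Differences are given as log2 of the P.NP signal minus log2 of the P signal, with the standard error (SE) of the limma fit. Testing covered 18625 of 31042 non-control probe sets, those whose mean signal reached 169.8. A probe set was called when its p, adjusted by Benjamini-Hochberg, met a false discovery rate of 10%. On chromosome 4 the QTL region was bounded by Arf5 and Ppp4r2, the outermost genes that the study listed there, in RefSeq order on the GRCr8 assembly. It held 588 probe sets for 397 genes, and 384 of them, for 284 genes, passed the filter.

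The RNA was that of whole bone with marrow. Bone matrix (Bglap, Col1a1), osteoclast (Acp5, Ctsk) and growth plate genes (Col2a1, Col10a1) all had signals of 8945 or more on each of the 10 arrays, as had the red cell gene Alas2, the neutrophil gene S100a9 and the muscle gene Acta1. Median signals were 293.9 to 311.8 on P.NP and 305.3 to 316.3 on P arrays. The 3' to 5' ratio of the GAPDH control was 1.07 to 1.10 on P.NP and 1.11 to 1.15 on P arrays, so that the strains did not overlap in it, and that of beta-actin was 2.01 to 2.37 and 1.87 to 2.31. The part of this small offset in the results was not tested. P replicate 2 stood apart from the other P arrays in its cartilage genes. Values without it are given for Gpnmb and for the cartilage, bone, macrophage, fuel, Wnt, BMP and TGF-beta, and interferon genes.

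Within the transferred segment, Ezh2, Nt5c3a, Akr1b8, Tmem140 and Cyren fell and Pyurf rose in P.NP rats. These 6 probe sets, 1.56% of the 384 tested in the region, were called when p values were adjusted over all probe sets, against 0.231% (43, with 0.113% higher and 0.118% lower) of all tested and 0.203% (37) of those outside the region. The strains did not overlap at any of the 6, while 1.73% (322) of all probe sets tested were without overlap. Of all 43 called probe sets 36 were without it. Calls and overlap were read on the same arrays, so the lack of overlap is not further evidence. The 3 region genes with the smallest p were Ezh2, Nt5c3a and Akr1b8. Their promoters are printed here because local variants that alter a transcript are often sought there, as the RefSeq reference sequence (GRCr8) of another rat strain, not that of P or NP. Each window runs from 250 bases before to 50 bases after the annotated start, 5' to 3' along the gene, on chromosome 4. Capitals mark matches on either strand to 4 motifs. One is TATAAA, the core letters of the promoter element near many tissue-specific starts. The next is CCAAT, read by nuclear factor Y. Another is AGATAA, read by the erythroid factor Gata1. The last is GGGCGG, read by Sp1.
Ezh2, chr4:77687134-77687433, minus strand: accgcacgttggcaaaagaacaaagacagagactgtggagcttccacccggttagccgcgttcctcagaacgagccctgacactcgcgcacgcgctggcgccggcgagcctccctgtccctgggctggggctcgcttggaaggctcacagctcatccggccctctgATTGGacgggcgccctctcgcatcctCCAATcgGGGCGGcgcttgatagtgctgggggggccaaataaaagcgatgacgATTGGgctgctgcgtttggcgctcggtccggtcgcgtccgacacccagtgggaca
Nt5c3a, chr4:87534789-87535088, minus strand: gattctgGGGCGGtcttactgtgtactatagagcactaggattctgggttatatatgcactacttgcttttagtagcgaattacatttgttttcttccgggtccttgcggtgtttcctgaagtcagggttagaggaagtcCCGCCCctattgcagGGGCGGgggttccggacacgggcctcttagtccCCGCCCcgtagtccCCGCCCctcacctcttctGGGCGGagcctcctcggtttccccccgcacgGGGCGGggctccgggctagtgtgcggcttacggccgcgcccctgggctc
Akr1b8, chr4:63964171-63964470, plus strand: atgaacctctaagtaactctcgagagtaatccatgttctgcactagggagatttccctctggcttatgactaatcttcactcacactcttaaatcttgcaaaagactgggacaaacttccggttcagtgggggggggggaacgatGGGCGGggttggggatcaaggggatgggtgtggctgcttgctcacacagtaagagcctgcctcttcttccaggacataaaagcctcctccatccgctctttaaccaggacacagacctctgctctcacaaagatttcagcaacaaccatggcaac
The Ezh2 window held 3 CCAAT and 1 GGGCGG, had 64.7% G and C and counted 30 CpG pairs, against a median of 51.7% and 7 pairs over 33469 promoters of the same length. The Nt5c3a window held 7 GGGCGG and 21 CpG pairs at 60.7% G and C. The Akr1b8 window held 1 GGGCGG and 5 CpG pairs at 50.3% G and C. Over all promoters 37.5% held CCAAT and 33.1% GGGCGG, while TATAAA (14.2%) and AGATAA (11.6%) were in none of the 3 windows. These matches describe letters in the reference and are not shown to be sites or to differ between P and NP.

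Ezh2 is the catalytic subunit of a polycomb complex that methylates histones and silences genes. One of its probe sets read 1337, 1270, 1208, 1257 and 1207 on the P.NP arrays and 2619, 2096, 2160, 1985 and 2100 on the P arrays. Every P.NP value lay below every P value. The strain means differed by 0.80 on the log2 scale or 1.74-fold (log2 difference -0.80, SE 0.078, adjusted p = 7.8e-05, limma). A second and brighter Ezh2 probe set differed less, with 3160 to 3735 in P.NP and 3581 to 4389 in P rats (log2 difference -0.26, SE 0.074), and was called only when p values were adjusted within the region (adjusted p = 0.0595). So both probe sets read lower in P.NP rats but by unequal amounts, and which transcripts each reads was not tested.

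Nt5c3a encodes the pyrimidine nucleotidase that red cells use to clear nucleotides as they mature. Its signals were 3175, 3300, 3411, 2929 and 3387 in P.NP against 5067, 4819, 5025, 4926 and 5196 in P rats. The 2 strains were far apart with little spread in either (log2 difference -0.63, SE 0.069, adjusted p = 2.12e-04). Akr1b8, an aldo-keto reductase that reduces aldehydes, read 343, 351, 442, 365 and 454 in P.NP and 533, 610, 691, 712 and 524 in P rats. Here too all P.NP values were lower (log2 difference -0.65, SE 0.11, adjusted p = 0.0192). The calls of Ezh2, Nt5c3a and Akr1b8 held when each of the 10 arrays was left out in turn. With the P.NP and P arrays fitted alone, 4 of the 6 calls of the region and 7 of the 37 outside it remained, and Akr1b8 was not among them (adjusted p = 0.163).

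Tmem140 encodes a transmembrane protein. It read 957, 968, 982, 886 and 834 in P.NP and 1420, 1235, 1386, 1397 and 1228 in P rats (log2 difference -0.53, SE 0.098, adjusted p = 0.0416). Cyren, an inhibitor of DNA end joining, read 431, 436, 363, 430 and 441 in P.NP and 873, 601, 613, 857 and 866 in P rats (log2 difference -0.84, SE 0.16, adjusted p = 0.0432). Both were lower on every P.NP array, and the P values of Cyren fell into a lower pair and a higher group of 3. The adjusted p of Tmem140 lay between 0.0493 and 0.138 and that of Cyren between 0.0434 and 0.113 with an array left out, each call being lost in 4 of the 10 fits.

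Pyurf, a small mitochondrial protein whose transcript also encodes Pigy, was the only gene of the region called higher over all probe sets. Its signals were 4289, 4768, 4539, 4698 and 4388 in P.NP and 3154, 3783, 3623, 3815 and 3480 in P rats. All P.NP values were above all P values, but the difference was small (log2 difference 0.35, SE 0.071, adjusted p = 0.0636), and the call stayed in 3 of the 10 fits with an array left out.

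**Figure D1:**
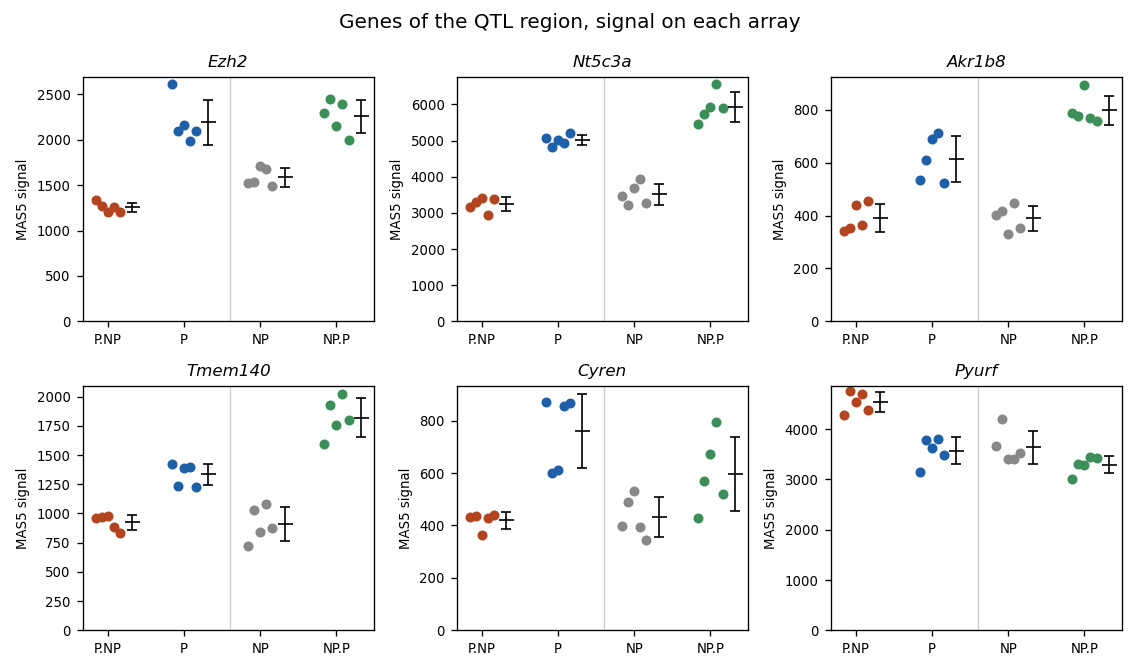
Signals of the 6 region genes called over all probe sets, with 1 point per array (linear axis from 0) for P.NP, P, NP and NP.P, and a bar for the mean and SD of 5 arrays. In the first 5 panels both strains with the NP segment, P.NP and NP, have the lower means of their pairs, and for Pyurf they have the higher.

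Because the segment was chosen for study in its own right, p values were also adjusted over its 384 probe sets alone. By that rule 20 probe sets (5.21%) were called, 5 higher and 15 lower in P.NP rats, and in 16 of the 20 the strains did not overlap. Among all 384 the strains did not overlap at 25 (6.51%). The same region had a median difference of -0.02, and 172 of its 384 probe sets (44.8%) were positive against 50.2% over all tested. At an unadjusted p under 0.05 there were 50 (13.0%) in the region and 1434 (7.7%) over all probe sets.

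The homeobox gene Hoxa5 was among those higher in P.NP rats, with 782, 731, 851, 882 and 907 against 536, 617, 622, 648 and 642 (log2 difference 0.44, SE 0.099, adjusted p within the region = 0.0143). Gimap5, a GTPase that lymphocytes need to survive, read 1214, 1326, 1232, 1185 and 1146 in P.NP and 968, 1009, 1106, 883 and 799 in P rats (log2 difference 0.36, SE 0.091, adjusted p = 0.0255). In both genes all 5 P.NP arrays were the higher ones. Wdr91, which acts in endosome maturation, was higher by 0.50 (SE 0.11, adjusted p = 0.0143), although P.NP replicate 1 at 751 lay below P replicate 1 at 791. Malsu1, an assembly factor of the mitochondrial ribosome, was higher by 0.32 (SE 0.095, adjusted p = 0.0785).

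Among the genes lower in P.NP rats by this adjustment, the largest difference was at a dim probe set of the zinc finger gene Zfp212, which read 173, 129, 106, 79 and 106 in P.NP and 250, 261, 219, 192 and 258 in P rats (log2 difference -1.03, SE 0.26, adjusted p = 0.0255). The groups did not overlap, and 4 of the 5 P.NP values were below the signal of 169.8 used as the filter on means. A second and brighter Zfp212 probe set differed by -0.16 (SE 0.22) and was not called (adjusted p = 0.824). Dgki, a diacylglycerol kinase of lipid signalling, read 196 to 290 in P.NP and 321 to 451 in P rats (log2 difference -0.63, SE 0.15, adjusted p = 0.0255). Smaller differences were found for the junction scaffold Magi1 (-0.47), the stress granule protein Tia1 (-0.39), a probe set of the polarity scaffold Pals2 (-0.34), the imprinted gene Mest (-0.21) and the Golgi trafficking GTPase Arf5 (-0.19), with no overlap at any of them and adjusted p from 0.0255 to 0.0975. A second, brighter probe set of Kel, a red cell membrane glycoprotein, differed by -0.21 and was not called (adjusted p = 0.111), where the called one differed by -0.35 (adjusted p = 0.0983) and overlapped between strains.

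With an array left out, Hoxa5, Wdr91, Gimap5, Dgki, Zfp212 and the called Pals2 probe set stayed called within the region in all 10 fits, and Arf5, Magi1, Mest and Kel in 1 or 2 of them.

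Grouped by role and read at the brightest probe set of each gene, the counts that follow stand beside 5.21% of the region's probe sets called within it. Of the red cell genes of the segment 7 of 8 were negative, with a median of -0.18, Nt5c3a being the member called over all. Erythroid markers elsewhere in the genome were negative in 20 of 22 (median -0.11), and their part in this was not tested. Of the 3 aldo-keto reductases tested all were negative (median -0.49), with Akr1b8 called, Akr1b1 at -0.27 and Akr1b10 at -0.49, but a second Akr1b1 probe set had the opposite sign at 0.39. Of 10 Hoxa and other developmental genes 3 were positive and 3 were called within the region, Hoxa5 higher and Ezh2 and Mest lower. Of 10 leukocyte genes 6 were positive, and Gimap5 (higher) and Tia1 (lower) were called within the region, where Gimap6 at 0.22 was not (adjusted p = 0.139). The 21 tested nuclear, secretory and housekeeping genes divided into 11 positive and 10 negative, with 4 called within the region. Of the 41 genes the study listed for this region and measured here, 19 were positive and 22 negative (median -0.03), and 7 were called within the region. That list was drawn up by the study on these same animals, so its counts are not independent evidence.

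The 9 hormone and bone genes of the segment were not called at their brightest probe sets. Npy, the neuropeptide Y gene, read 6488, 6169, 7711, 6088 and 7553 in P.NP and 6402, 7073, 5689, 6005 and 6436 in P rats, which overlap (log2 difference 0.10, SE 0.092, adjusted p within the region = 0.678). Gpnmb, a glycoprotein of osteoblasts and macrophages, read 10204, 8835, 10224, 10899 and 11872 in P.NP and 14634, 8628, 15084, 12970 and 14431 in P rats. Apart from P replicate 2 every P value exceeded every P.NP value. With that array the difference was -0.32 (SE 0.14, adjusted p = 0.319), and without it -0.46 with an adjusted p of 0.0399 within the region. Ghrhr, the receptor for growth hormone releasing hormone, differed by -0.31 at its brighter probe set (SE 0.20, adjusted p = 0.528) and by -0.66 at the other (SE 0.19, adjusted p = 0.0595), with overlap at both. Spr could be read only by a probe set it shares with its pseudogene and is given no value.

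In gene order the calls lay towards the start of the region. Tmem140, Cyren and Wdr91 are consecutive genes, and the first pair was lower while the third was higher in P.NP rats. Of the 6 genes called over all probe sets, Akr1b8 lies nearest to the start of the region, shortly before those 3, and Pyurf nearest to the end. Of those called within the region, Arf5 is the first gene and Magi1 the last. Arf5 also bounds the region, whose limits are genes the study listed as differentially expressed in these same animals. Its place at the start was fixed by how the region was drawn. The region was also split at Pyurf, a split chosen after the values were seen. Up to Pyurf there were 187 tested probe sets, with 6 calls over all and 18 within the region. After it there were 197, with 0 and 2 (Tia1 and Magi1). Since Pyurf is the last of the 6 in gene order, the 6 and the 0 were fixed by this choice and are not evidence of position. The other counts of the split are not independent of it. At an unadjusted p under 0.05 the numbers were 35 and 15 by limma. Adjacent to the region, chromosome 4 gave 1 call in 169 probe sets before it, Pdk4, and 0 in 269 after it. By limma 20 (11.8%) of the first and 27 of the second had an unadjusted p under 0.05, beside 13.0% in the region.

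**Figure D2:**
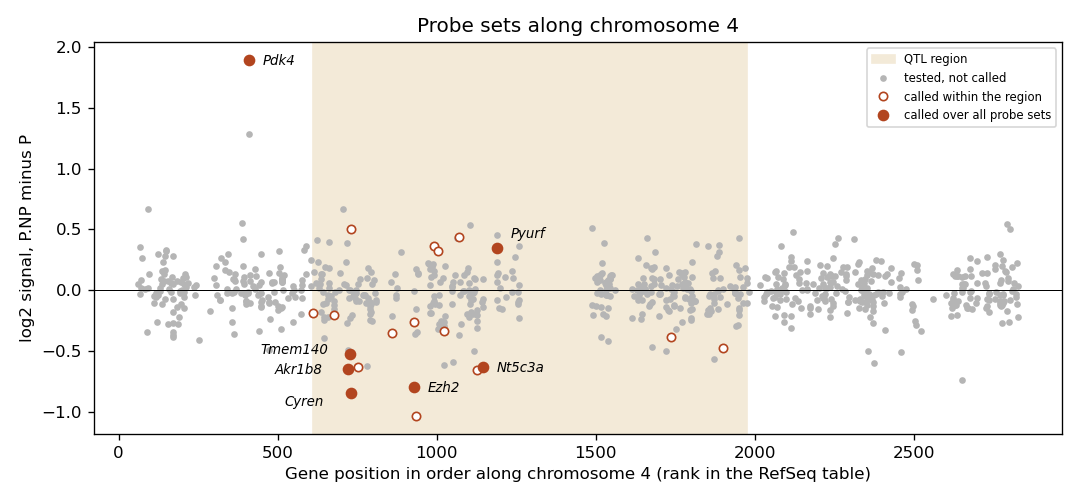
Log2 difference between P.NP and P for the 822 tested probe sets of chromosome 4, by the rank of their genes in RefSeq order (no distances), with the QTL region shaded. Filled points are the 7 called over all probe sets, 6 of them in the region, and open points those called only within the region, most of which lie in its first part.

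Outside the region 37 probe sets were called, 20 higher and 17 lower in P.NP rats, and 20 of these carry 1 gene symbol, for 19 genes. The higher genes were led by Pdk4, Ucp3, Angptl4 and Sult1a1, each raised 2.62-fold or more at its called probe sets, and the lower ones by Stfa2l2, Med1 and Sox6. In 16 of the 20 probe sets the strains did not overlap, beside 1.63% (297) of all those tested outside the region. The number called outside the region was 13 to 63 with an array left out. The unequal-variance test of the methods, run here on the MAS5 signals, called 0 probe sets after adjustment over all, in the region or outside it. By that test 1374 had an unadjusted p under 0.05, against 1434 by limma. The study used it on robust multichip averages of probe sets detected as present. It reported no trans-regulated genes for P against P.NP. By chromosome, 4 had the highest share called (0.852% of 822), and the others had at most 0.325% (chromosome 10, 4 of 1229), with 0 calls on 9 of them and on Y by limma.

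Pdk4, Ucp3 and Angptl4 act in the use of fatty acids as fuel. Pdk4, a kinase that shuts down pyruvate dehydrogenase, read 11816, 18944, 20008, 15452 and 14963 in P.NP and 2011, 2040, 8452, 7004 and 6097 in P rats. The lowest P.NP array exceeded the highest P array, but P replicates 1 and 2 lay far below the other 3 (log2 difference 1.89, SE 0.38, adjusted p = 0.0570). The difference was 1.61 to 2.13 with an array left out, and the adjusted p rose to as much as 0.154, the call staying in 4 of 10 fits. A second Pdk4 probe set differed by 1.28 (SE 0.31) and was not called (adjusted p = 0.151). Pdk4 lies on chromosome 4 before the region, and whether P.NP rats carry NP sequence there was not tested.

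Ucp3, a mitochondrial uncoupling protein found mainly in muscle, read 1678, 2458, 2048, 1930 and 1648 in P.NP and 367, 358, 903, 1014 and 632 in P rats (log2 difference 1.69, SE 0.27, adjusted p = 0.0113). A second Ucp3 probe set was also called (1.39, SE 0.25, adjusted p = 0.0293), and both were without overlap. Angptl4, a secreted inhibitor of lipoprotein lipase, read 1722, 2547, 3176, 2666 and 1661 in P.NP and 612, 406, 1259, 782 and 914 in P rats (log2 difference 1.62, SE 0.27, adjusted p = 0.0192). All P.NP arrays were higher at these probe sets too, and the calls of Ucp3 and Angptl4 held with each array left out. With the 10 arrays alone the second Ucp3 probe set was called (adjusted p = 0.0399), and the first (adjusted p = 0.127) and Angptl4 (adjusted p = 0.138) were not.

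Of 25 genes of fatty acid fuel use, a list drawn up after these values were seen, only Ucp3, Angptl4 and Pdk4 were called (0.231% of all probe sets were), and 14 were positive with a median of 0.02. With an array left out in turn the median ran from -0.06 to 0.10. The upper end was without P replicate 2, when 20 of the 25 were positive. For this list P replicate 1 was the lowest P array (score -0.50), and P replicate 2 was at 0.00029. Cpt1a, which carries fatty acids into mitochondria, differed by 0.62 (adjusted p = 0.235) and the lipid droplet protein Plin5 by 0.66 (adjusted p = 0.524). Ucp2, of the same family as Ucp3, differed by -0.21 (adjusted p = 0.404). Skeletal muscle marker scores overlapped between the strains. Of the 18 genes tested, 0 were called by limma and 0 had an unadjusted p under 0.05, 10 were positive and the median was 0.02. Their score was -0.36 on P replicate 1 and 0.31 on P replicate 2, the lowest and the highest of the 5 P arrays, and the 2 arrays on which Pdk4 and Ucp3 were lowest. The part of muscle in these results was not tested.

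Sult1a1, a sulfotransferase of phenols and hormones, read 3050, 2371, 3705, 3483 and 3152 in P.NP and 697, 916, 1280, 1627 and 1613 in P rats, again without overlap (log2 difference 1.42, SE 0.22, adjusted p = 0.0088). Ccn5, a secreted matrix protein, read 551 to 651 in P.NP and 301 to 484 in P rats (0.61, SE 0.11, adjusted p = 0.0228). Both calls held with each array left out but not with the 10 arrays alone (adjusted p = 0.108 and 0.211). The RNA helicase Ddx51 (0.79, adjusted p = 0.0773), the mast cell tryptase Tpsab1 (0.84, adjusted p = 0.0773) and the histone gene Hist2h2be (0.37, adjusted p = 0.09998) were called less firmly, Hist2h2be in 0 of the 10 fits with an array left out. The metallothionein Mt2A read 4531, 3468, 6177, 5068 and 4326 in P.NP and 2760, 3225, 3130, 3042 and 3576 in P rats. P replicate 5 was above P.NP replicate 2, and the call (0.56, SE 0.12, adjusted p = 0.0946) stayed in 1 of the 10 fits.

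Among the lower genes, Stfa2l2, a stefin that inhibits cysteine proteases, read 2105, 2395, 2489, 1912 and 1703 in P.NP and 4707, 3485, 3494, 3552 and 4205 in P rats. No array of either strain reached the other (log2 difference -0.88, SE 0.12, adjusted p = 0.0044). Of 9 granulocyte genes, none of them called, 8 were negative as well (median -0.14), and their part in this result was not tested. Cybb, the catalytic subunit of the phagocyte oxidase, read 3437 to 5198 in P.NP and 5427 to 7347 in P rats (-0.58, SE 0.13, adjusted p = 0.09998), a call that stayed in 1 of the 10 fits.

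Sox6, a transcription factor of cartilage and of red cell precursors, read 1548, 1219, 1383, 1075 and 937 in P.NP and 1525, 1996, 1982, 1877 and 2122 in P rats. Only P.NP replicate 1 reached into the P values, where it passed P replicate 1 (log2 difference -0.64, SE 0.12, adjusted p = 0.0437). The call was lost without P.NP replicate 4 or 5 or without P replicate 2, 3 or 5, with adjusted p up to 0.138. Of 19 cartilage markers 2 had negative differences, Sox6 being 1 of these, and 12 had without P replicate 2. Erythroid genes did lean lower, with 20 of 22 negative at a median of -0.11 and 0 called by limma (4 at an unadjusted p under 0.05), and their part in the Sox6 result was not tested.

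The other lower genes with 1 symbol differed by -0.37 to -0.73 at their called probe sets. Btrc, the substrate receptor of a ubiquitin ligase (-0.53, adjusted p = 0.0154), and the transporter Slc16a6 (-0.37, adjusted p = 0.0228) were without overlap and held with each array left out. In a fit of the 10 arrays alone neither was called (adjusted p = 0.138 and 0.165), and the other probe sets of Btrc, among them the brightest, differed by -0.05 and -0.07 (adjusted p = 0.951 and 0.974). The mediator subunit Med1 (-0.73), the translocon-associated Ssr3 (-0.50), the paraspeckle protein Pspc1 (-0.37) and the deubiquitinase Otud1 (-0.51) had adjusted p from 0.0437 to 0.09998. For Med1, Ssr3 and Pspc1 another probe set had the opposite sign, at 0.10, 0.12 and 0.22. The muscle myosin Myh1 was called lower at a dim probe set (-0.51, adjusted p = 0.09998), while another 3 of its probe sets, among them the brightest, had values from 0.11 to 0.15 and were not called.

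**Figure D3:**
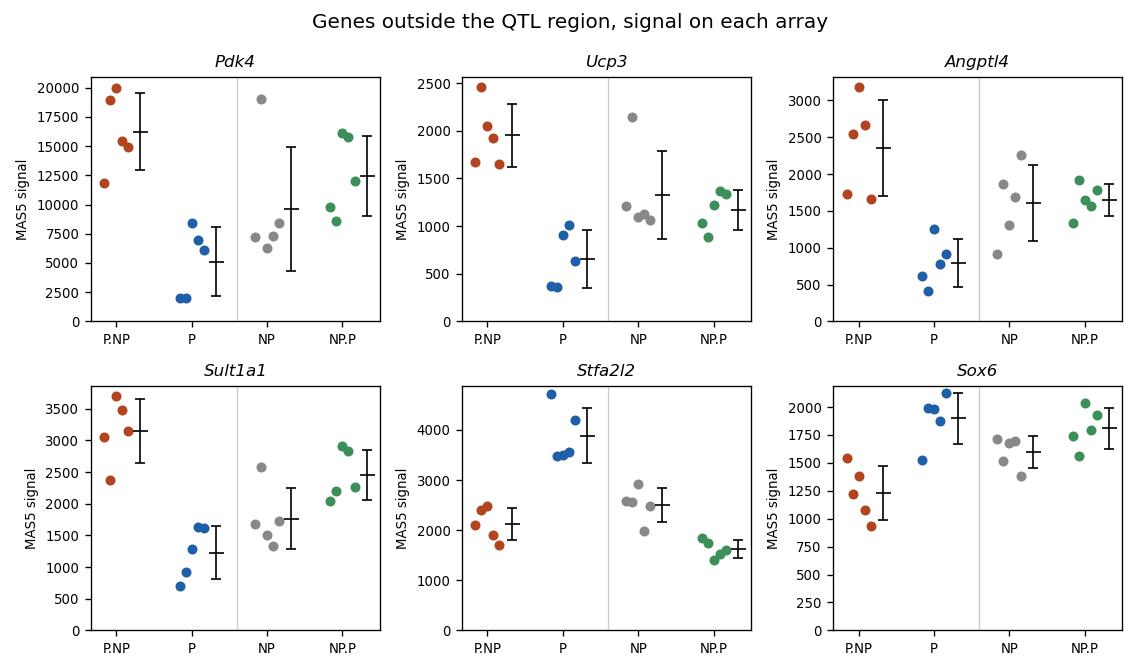
Signals of 6 genes outside the QTL region, with 1 point per array (linear axis from 0) for P.NP, P, NP and NP.P, and a bar for the mean and SD of 5 arrays. P.NP and P stand apart for the first 5 genes and overlap at 1 array for Sox6, while the NP and NP.P means lie close together for Ucp3 and Angptl4.

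The reciprocal pair, NP.P and NP, shares no array with P.NP and P, so the same transcripts could be read a second time. The differences of the pairs come from separate arrays, but their calls rest on 1 estimate of the spread over all 20. An effect that follows the segment should have the opposite sign there, since NP.P gains the P segment where P.NP loses it. All 6 called probe sets of the region had the opposite sign in NP.P minus NP, against 52.3% of all tested, and 4 of them were called there (2.3% of all tested were). Nt5c3a was 0.75 higher in NP.P (SE 0.069), Akr1b8 1.04 (SE 0.11), Tmem140 1.01 (SE 0.098) and Ezh2 0.51 (SE 0.078), with limma adjusted p of 0.0036 or less. For Cyren (0.45, adjusted p = 0.188) and Pyurf (-0.14, adjusted p = 0.409) the difference was not called.

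Of the 20 probe sets called within the region, 18 had the opposite sign in the reciprocal pair, and 8 were called there, all opposite. Of all 384 tested in the region 56.0% had the opposite sign. In NP.P minus NP 21 of the 384 were called, 20 of them opposite, so the sign of the 8 is near that of all such calls. Gimap5 at -0.64, Hoxa5 at -0.68, Mest at 0.50 and Zfp212 at 1.23 were among these 8. The exceptions in sign were Tia1, at -0.39 in P.NP minus P and -0.34 in NP.P minus NP, and Magi1, at -0.47 and -0.10. Npy, whose signals overlapped between P.NP and P, differed by -0.53 between NP.P and NP animals, NP.P being the lower (adjusted p = 0.0104). The difference between the pairs, tested as an interaction of segment and background, was not called for Npy (adjusted p = 0.243).

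Outside the region 16 of the 37 called probe sets had the opposite sign (43.2%), and 7 were called in NP.P minus NP, 3 with the opposite and 4 with the same sign. The median size of the difference there was 0.224 for these 37, where it was 0.631 for the 6 of the region. The interaction was called for 15 of the 37 and for 0 of the 6 (0.317% of all tested, 59 probe sets). It contains the P.NP minus P difference by which both sets were called. These counts are therefore not independent of that choice, and the share of all tested is not a like baseline. Angptl4 differed by 1.62 in P.NP minus P and by 0.10 in NP.P minus NP (interaction 1.72, adjusted p = 0.0865). Stfa2l2, at -0.88 and -0.62, and Mt2A, at 0.56 and 0.58, went the same way in both congenic strains against their backgrounds (interaction -1.50, adjusted p = 0.0011, and 1.15, adjusted p = 0.0079). For Pdk4 and Ucp3 the interaction was not called (adjusted p = 0.107 and 0.129).

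**Figure D4:**
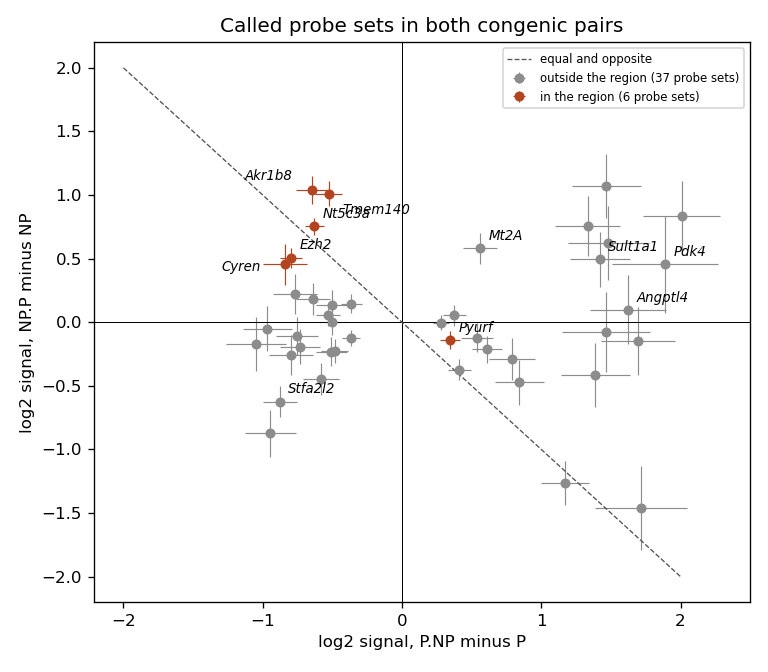
Log2 difference of the 43 called probe sets between P.NP and P (horizontal) and between NP.P and NP (vertical), with bars of 1 SE. The 6 region probe sets lie in the quadrants of opposite sign that the dashed line of equal and opposite effects crosses, and of the 37 others 16 do.

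The lists of cell type markers and of processes held 292 genes outside the region that were tested, and of these Sox6 alone was called (0.231% of all probe sets were). In bulk tissue, fewer cells of a type and less RNA per cell cannot be told apart. The median differences of the lists are read beside 0.000559 over all probe sets, of which 50.2% were positive. Macrophage genes were positive in 10 of 12 (median 0.12), or in 8 with a median of 0.07 without P replicate 2, with Cd163 at 0.42 (adjusted p = 0.369), and megakaryocyte and platelet genes in 8 of 9 (median 0.14), with Pf4 at 0.16. Cell division genes were negative in 19 of 21 (median -0.08) and interferon response genes in 9 of 10 (median -0.08), with 0 called. Without P replicate 2 the interferon median was -0.14, again with 9 of 10 negative.

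Cartilage genes were positive in 17 of 19, with a median of 0.33, but this rested on a single array. Their score, the mean log2 signal of the list with each gene centred on its mean over the 10 arrays, was -1.40 on P replicate 2 and -0.003 to 0.46 on the other P arrays, and on the P.NP arrays it was -0.30 on replicate 2 and 0.18 to 0.26 on the others. Without P replicate 2 the median was -0.09 and 7 of 19 were positive. P.NP replicate 2, also low for this list, was still in that fit. On P replicate 2 Col10a1, the collagen of hypertrophic chondrocytes, read 8945 where the other P.NP and P arrays read 25456 to 41786. Osteoblast genes were 12 of 19 positive (median 0.02) and osteoclast genes 7 of 12 (median 0.07), and in both lists P replicate 2 was again the lowest P array. Without it the osteoblast genes were 9 positive and 10 negative (median -0.008) and the osteoclast genes 7 of 12 positive (median 0.008). Bglap, the osteoblast product osteocalcin, differed by -0.10 (adjusted p = 0.854).

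**Figure D5:**
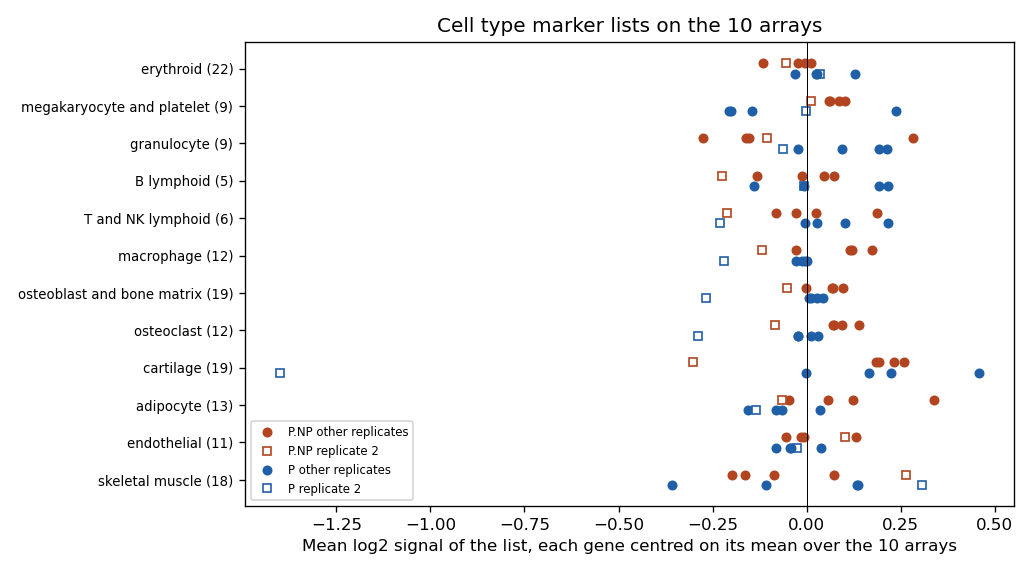
Scores of 12 cell type marker lists on each array, in log2 units, with the number of genes tested in parentheses; open squares are replicate 2 of each strain. P replicate 2 stands far to the left for cartilage (-1.40) and is the lowest P array for macrophage, osteoblast and osteoclast genes.

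Of the GH and IGF axis, which drives growth of long bones, 7 of 13 genes were positive. Igf1, the growth factor itself, read 7675 to 8736 in P.NP and 9639 to 11586 in P rats and did not overlap, but was not called (log2 difference -0.30, SE 0.083, adjusted p = 0.272). The binding protein Igfbp3 differed by 0.30 (SE 0.097, adjusted p = 0.378) and the clearance receptor Igf2r by -0.35 (SE 0.12, adjusted p = 0.455). Among immediate early genes, of which 8 of 14 were negative, Atf3 read 63 to 339 in P.NP and 437 to 581 in P rats (-1.26, SE 0.36, adjusted p = 0.282) and Ier3 differed by -0.40 (adjusted p = 0.276). Wnt genes were positive in 11 of 15 (median 0.05), or in 8 (median 0.02) without P replicate 2. BMP and TGF-beta signalling genes were positive in 16 of 22 (median 0.07), or in 14 (median 0.05) without that array. The Wnt and the BMP and TGF-beta lists gave 0 calls by limma and 0 and 1 at an unadjusted p under 0.05. Adipocyte genes were positive in 8 of 13 (median 0.14), with Pck1 at 0.78 (SE 0.24, adjusted p = 0.332). Of the neuropeptide Y system outside the segment 3 genes were tested, and Npy1r, a receptor of the peptide, differed by 0.40 (adjusted p = 0.590). Tetrahydrobiopterin synthesis genes were negative in 4 of 5 (median -0.11), and the estrogen, interferon-gamma and calcium channel genes were positive in 8 of 11 (median 0.07). The B lymphoid (1 of 5), T and NK lymphoid (2 of 6), MHC class II (3 of 8), endothelial (8 of 11) and hypoxia and glycolysis (13 of 15) lists held the given numbers of positive genes and 0 called by limma, with 0, 0, 0, 1 and 2 at an unadjusted p under 0.05.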

How the data were processed

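Femur RNA of 4-week-old rats, 1 sample per animal, was hybridised to the Affymetrix Rat Genome 230 2.0 array. What the authors deposited is the MAS5 signal of each probe set, a linear intensity scaled to a common trimmed mean on every array. The robust multichip averages and detection calls of the study's methods were not used here. MAS5 subtracts a mismatch estimate, so dim probe sets are noisy.

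Signals under 1 (190 values) were set to 1 and taken to log2. The table lists 31099 probe sets, 57 of them controls. A single gene symbol was available for 20826 of the other 31042, several symbols for 436 and none for 9780. On GRCr8 20821 were placed, 20758 by gene identifier and 63 by symbol or synonym. Testing used the 18625 whose mean reached the 40th percentile.

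All 20 arrays entered a limma 3.58.1 model of 1 mean per strain (lmFit, contrasts.fit, eBayes) in R 4.3.3 (residual degrees of freedom 16, prior 2.78). P values were adjusted by Benjamini-Hochberg over all probe sets or, where stated, within the region, at a false discovery rate of 10%. The interaction is P.NP minus P plus NP.P minus NP. Lists read each gene at its brightest probe set, and a called probe set that was not the brightest is given beside it. Named were the called genes with 1 symbol, up to 3 members of each list with the smallest p, genes called within the region, and Npy, Gpnmb, Ghrhr and Spr. Lists were described by counts and medians, with no set test. Members and lists were chosen with earlier results of these data known.

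On simulated data over 18625 probe sets for P.NP minus P, limma recovered 55 of 100 probe sets changed by 0.5 and 87 of 100 changed by 1.0 on the log2 scale. Of its 156 calls 14 were false, and the reciprocal contrast, into which no change was put, gave 0 calls. The simulated noise was normal and independent between probe sets. It held no deviation shared by the genes of an array, so these counts do not carry over to such deviations. The labels give 5 arrays per strain, whose number limits the precision. Nothing beyond the methods' count of 5 per strain says how the animals were chosen, so p values measure the spread between these samples. Alternatives were no filter, a 60th percentile filter, quantile normalization, an added offset of 21.7 (the 10th percentile), a mean-variance trend, a false discovery rate of 5%, the 10 arrays alone, the unequal-variance test of the methods, all of chromosome 4 as the region, other probe sets, a block for the replicate number, and each array left out in turn. Figures were drawn with matplotlib 3.10.9 in Python 3.11.15. Bone measurements were not analysed here.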

Additional observations from a re-analysis of the deposited data

Results flagged for a closer look

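Of 132 sets of 5 arrays looked at, 11 held a value far from the others by Dixon's criterion (0.71), which chance alone meets in about 1 in 20. P replicate 2 accounted for 5 of these, with list scores of -0.22 for macrophage (-0.03 to 0.00058 on the other P arrays), -0.27 for osteoblast and bone matrix, -0.29 for osteoclast and -1.40 for cartilage genes, and a Gpnmb signal of 8628 against 12970 to 15084. P.NP replicate 2 was low in cartilage genes, with a score of -0.30 against 0.18 to 0.26. P replicate 1 was low for the GH and IGF axis (-0.24 against 0.01 to 0.10) and for Hoxa5 (535.5 against 617 to 648). P.NP replicate 3 was low for Cyren (363 against 430.3 to 441) and for the brighter Ghrhr probe set (262 against 419 to 490), and P.NP replicate 1 for Wdr91 (751 against 944 to 974).

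The difference between the strain with the NP segment and its partner was unequal in the 2 pairs, by the limma interaction, for 9 named genes. In P.NP minus P, relative to NP minus NP.P, it was higher by 1.92 for Sult1a1 (adjusted p = 0.0123), 1.15 for Mt2A (0.0079) and 1.72 for Angptl4 (0.0865). It was lower for Slc16a6 (-0.49, adjusted p = 0.0327), Med1 (-0.92, 0.0748), Cybb (-1.03, 0.0266), Otud1 (-0.74, 0.0748), Stfa2l2 (-1.50, 0.0011) and Tia1 (-0.72, 0.0748), the last being the 1 gene of the region among them. All of these genes were named because they were called in P.NP minus P, a difference that the interaction contains.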

How the results depend on the processing

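Over all probe sets 43 were called. The number was 18 with no filter, 23 at a false discovery rate of 5%, 11 with the 10 arrays alone, and 0 by the unequal-variance test of the methods, whose smallest adjusted p was 0.2415 and which gave 1374 at an unadjusted p under 0.05 (1434 by limma). Leaving out an array gave 16 to 71, the counts being 71 without P.NP replicate 1, 26 without P.NP replicate 4, 16 without P.NP replicate 5, 28, 27, 19 and 25 without P replicates 1, 2, 3 and 5. The 6 calls of the region became 3 with no filter, 0 by the unequal-variance test and 3 to 8 with an array left out, 3 being the count without P.NP replicate 5. The 37 calls outside became 15 with no filter, 56 with a mean-variance trend, 18 at 5%, 7 with the 10 arrays alone, 24 with the replicate number as a block, 0 by the unequal-variance test, and 13 to 63 with an array left out. The 20 calls adjusted within the region became 12 at 5% and 12 to 21 with an array left out (12 without P.NP replicate 2), and were 18 by the unequal-variance test. Interaction calls, 59, became 17 with no filter, 127 with a 60th percentile filter, 115 with a trend, 25 at 5%, and 27 to 63 with an array left out, moving over 1.5 times without P.NP replicate 2, 4 or 5 or P replicate 1, 2, 4 or 5. The single listed gene called, Sox6, became 0 with no filter, the 10 arrays alone, the unequal-variance test or the block, and 0 to 2 with an array left out, the added gene without P.NP replicate 2 being Cd163. Other settings kept these counts within 1.5 times. The causes were not tested.

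Of the 43 calls 16, and of the 6 in the region 3, were made in all 10 fits with an array left out. Over 43 named probe sets such fits gave 430 values, 269 on the same side of the threshold, 160 no longer past it, 1 newly past it (Gpnmb without P replicate 2) and 0 of opposite sign. Other settings gave 380 values, 267 on the same side and 113 not. Other probe sets of the same gene had the opposite sign for Magi1 (0.013), Med1 (0.10), Myh1 (0.15, 0.12 and 0.11), Pspc1 (0.22) and Ssr3 (0.12).

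Same-numbered P.NP and P arrays correlated at 0.108, 0.262, 0.00425, 0.00546 and 0.0888 in their deviations, not all above 0.1, so the numbers were not taken to pair the samples. Hints from the data and not the design point the other way. All of these correlations were positive, and 3 of 5 P.NP arrays correlated best with their own number. The beta-actin 3' to 5' ratio also ranked the numbers in the same order in both strains. For numbers 1, 3, 4, 5 and 2 it was 2.37, 2.35, 2.28, 2.09 and 2.01 on P.NP arrays. On P arrays it was 2.31, 2.23, 2.19, 2.03 and 1.87. What the numbers stand for was not tested. With the replicate number as a block 29 probe sets were called, 24 of them outside the region, and of the 43 named 29 kept their side of the threshold.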

Other observations

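Of the 43 called probe sets 17 carry no single gene symbol and have no position here, 10 higher and 7 lower in P.NP rats. Of these 17, 3 were called with the opposite sign in the reciprocal pair, and the 2 with the larger differences, chosen after their values were seen, are given in full. Probe set 1378546_at read 567, 620, 535, 515 and 599 in P.NP and 198, 344, 343, 230 and 187 in P rats (log2 difference 1.17, SE 0.17, adjusted p = 0.0085, limma), and was called with the opposite sign in NP.P minus NP (-1.26, SE 0.17, adjusted p = 0.0017). Probe set 1393397_at read 379, 287, 292, 349 and 383 against 91, 54, 134, 123 and 138 (1.72, SE 0.33, adjusted p = 0.0437) and was also called the other way there (-1.46, SE 0.33, adjusted p = 0.0421). All P values of 1393397_at lay below the signal of 169.8 used as the filter on means. It thus passed the filter only through other strains, and the size of its difference rests on dim, noisy signals. The other one differed by 0.41 (adjusted p = 0.0547) and by -0.37 there (adjusted p = 0.0367). The first 2 had higher signals in the strains with the NP segment, without overlap between P.NP and P. Called with the same sign in NP.P minus NP were 1380375_at (-0.945 and -0.874, limma adjusted p there 0.0309) and 1392613_at (1.465 and 1.071, 0.0471). Over all probe sets tested, 429 were called in NP.P minus NP, 258 with the opposite and 171 with the same sign. Where these sequences lie in the genome was not tested.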
